A study of Homo sapiens with 12 samples.

Results

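Small nuclear and small nucleolar RNA genes, the host genes that carry small nucleolar RNAs in their introns, and the nuclear long noncoding RNAs MALAT1 and NEAT1 were followed through 4 lists of ac4C peaks from H1 cells. Members were chosen by gene symbol alone: symbols that start with SNORA, SNORD, SCARNA, RNU, RNVU, RN7S or SNHG, together with GAS5, RMRP, RPPH1, MALAT1 and NEAT1. Peaks on chr15 between 24800000 and 25450000 were left out, which removed 353 peaks. This gave 368 of 140401 listed peaks and 65 of 10992 genes with a listed peak, counting genes by Ensembl identifier. The 65 genes carried 64 symbols, because SNORA26 is listed under a pair of identifiers at the same place. They fell into small RNA genes, 16 host genes and the 2 long noncoding RNAs.

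The assay, ac4C-RIP-seq, uses an antibody to pull down RNA fragments, here of about 200 nt, that contain N4-acetylcytidine (ac4C), a cytidine acetylated by the enzyme NAT10. H1 is an established line of human embryonic stem cells. The NAT10-KD group was H1 transduced with lentivirus carrying GFP and a short hairpin RNA against NAT10, cultured for 48 h, enriched for GFP and expanded with 0.5 ug/ml puromycin. The WT group was H1 cells called wild type, and no control hairpin, GFP or puromycin is named for it, so effects of these and of NAT10 cannot be told apart. Each group had 2 immunoprecipitation libraries with 1 peak list each, called NAT10-KD 1, NAT10-KD 2, WT 1 and WT 2, while the libraries of input and of IgG control were not used here. The labels name poly(A) RNA as the molecule and also describe removal of ribosomal RNA from total RNA, and it is not settled which RNA entered the assay, although most small RNAs studied here carry no poly(A) tail. Less acetylation, less of the RNA and fewer cells that contain it cannot be told apart from a peak list.

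Small nucleolar RNAs (snoRNAs) guide chemical marks on ribosomal RNA, box C/D snoRNAs mainly 2′-O-methylation and box H/ACA snoRNAs pseudouridylation, and scaRNAs do the same for spliceosomal RNAs in Cajal bodies. In human cells most snoRNAs are cut from introns of host genes, and some hosts (GAS5 and the SNHG genes) have spliced RNAs that code for no long protein. Small nuclear RNAs (U1, U5, U6 and the minor spliceosome's U11, U12, U4atac and U6atac) form the cores of the spliceosome. NAT10 itself works with the snoRNA SNORD13 in acetylating 18S ribosomal RNA, which links ac4C to this class of RNA.

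NAT10 had 0 listed peaks in both NAT10-KD lists, against 7 and 9 peaks in the WT lists. A peak list does not measure the RNA's level. THUMPD1, the partner of NAT10 in tRNA acetylation, had 2 and 0 peaks in the NAT10-KD lists, against 6 and 4 in the WT lists. Of 9 pluripotency marker genes, 7 and 8 had a peak in the NAT10-KD lists, against 9 and 8 in the WT lists. Their numbers of peaks were not alike: DNMT3B had 0 and 0 in the NAT10-KD lists, against 14 and 10 in the WT lists, and LIN28A had 2 and 2, against 9 and 9. The lists held 27787 and 36476 peaks for NAT10-KD, against 37988 and 38150 for WT. Read depth is unknown.

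Several host genes carried a peak over the first 50 transcribed bases, and the sequences of these starts are shown because the NAT10-KD lists held such peaks in more hosts than the WT lists did. Each sequence is RefSeq's (GRCh38.p14), 5′ to 3′ on the gene's own strand, with 30 bases before the annotated start and the first 50 transcribed bases after it. The places are chr11:62855836-62855915, minus strand, for SNHG1, chr17:76557734-76557813, plus strand, for SNHG16, chr17:16438957-16439036, plus strand, for SNHG29, and chr17:35568084-35568163, plus strand, for SNHG30. They are chr6:85678684-85678763, minus strand, for SNHG5, and chr4:118278732-118278811, plus strand, for SNHG8. For MALAT1 the downstream of its RefSeq starts is shown, chr11:65499015-65499094, plus strand. Capitals mark bases under a peak of either NAT10-KD list in the SNHG genes, and under a peak of either WT list in MALAT1.
SNHG1: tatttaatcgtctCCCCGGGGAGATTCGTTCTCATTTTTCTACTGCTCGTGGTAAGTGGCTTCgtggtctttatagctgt
SNHG16: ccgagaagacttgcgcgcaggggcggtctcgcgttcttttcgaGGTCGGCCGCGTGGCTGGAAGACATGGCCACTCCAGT
SNHG29: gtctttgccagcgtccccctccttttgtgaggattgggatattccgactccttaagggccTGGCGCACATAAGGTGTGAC
SNHG30: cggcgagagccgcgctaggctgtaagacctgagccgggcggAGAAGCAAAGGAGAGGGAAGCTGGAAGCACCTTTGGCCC
SNHG5: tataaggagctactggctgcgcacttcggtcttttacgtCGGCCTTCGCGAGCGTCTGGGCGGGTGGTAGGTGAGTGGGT
SNHG8: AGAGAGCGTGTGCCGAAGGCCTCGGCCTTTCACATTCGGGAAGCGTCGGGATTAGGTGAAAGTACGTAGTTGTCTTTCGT
MALAT1: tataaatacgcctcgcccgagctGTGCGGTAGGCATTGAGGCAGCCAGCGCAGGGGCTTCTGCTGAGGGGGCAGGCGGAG
In SNHG1 the peak covered 33 and 25 of the first 50 bases in the NAT10-KD lists, and 0 in both WT lists. In SNHG16 it covered 12 and 37 bases in the NAT10-KD lists, and in SNHG29 20 bases in each, with 0 in both WT lists for either gene. SNHG30 had 0 and 39 covered bases in the NAT10-KD lists and 0 in both WT lists. SNHG5 had 41 bases covered in each NAT10-KD list, against 25 and 0 in the WT lists. SNHG8 was covered at its start in all 4 lists, over 50 bases in each NAT10-KD list and 50 and 25 bases in the WT lists. MALAT1 showed the opposite pattern, with 0 covered bases in both NAT10-KD lists and all 50 in both WT lists.

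A start peak was listed for 5 of 11 members in NAT10-KD 1 and 6 of 12 in NAT10-KD 2, against 3 of 9 in WT 1 and 2 of 12 in WT 2, counting members with a peak in that list and a RefSeq start. Over all genes the share with a start peak was 19.1% and 21.6% in the NAT10-KD lists, against 7.79% and 11.3% in the WT lists, so the difference between genotypes was present in the background too. Of the 5 members with a start peak in both NAT10-KD lists, 3 (SNHG1, SNHG16 and SNHG29) had none in either WT list, against 71.9% of all such genes. Of the 2 with one in both WT lists, 1 (MALAT1) had none in either NAT10-KD list, against 44.3% of all such genes. No test of members against the genes at large was made.

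Many host genes belong to the class whose RNAs open with a run of pyrimidines. A C at the first transcribed base followed by 3 bases that are each C or T was found on the transcribed strand in 5 of 14 hosts (35.7%: SNHG12, SNHG26, SNHG32, SNHG5 and SNHG7), against 5.45% of all 35097 RefSeq starts. The letters CCG, searched on the transcribed strand only within the first 50 transcribed bases, stood in 9 of 14 hosts (64.3%), against 51.5% of all starts. A match describes these letters only. Of the hosts with a start peak in both NAT10-KD lists, SNHG5 opened with pyrimidines in this sense, and SNHG1, SNHG16, SNHG29 and SNHG8 did not at the RefSeq start.

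The question of the comparison is which ac4C peaks depend on NAT10. Members contributed 84 and 91 peaks to the NAT10-KD lists, against 95 and 98 to the WT lists, so the groups did not overlap. The means were 87.5 ± 4.95 for NAT10-KD and 96.5 ± 2.12 for WT (SD, n = 2 each; two-sided exact permutation p = 0.333, which no pair of groups this small can go below). Nothing in the labels says that the libraries came from separate cultures, so the spread behind such p-values is that between these samples and may be technical. As a share of each list the members came to 0.302% (0.241 to 0.374) and 0.249% (0.201 to 0.306) for NAT10-KD, against 0.250% (0.202 to 0.306) and 0.257% (0.209 to 0.313) for WT. The bounds are exact 95% Clopper-Pearson limits, which take in counting error alone. The shares overlapped between genotypes (exact permutation p = 1).

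The kinds of gene differed. MALAT1 and NEAT1 together had 4 and 5 peaks in the NAT10-KD lists, against 26 and 24 in the WT lists (exact permutation p = 0.333), with no overlap. All listed peaks, 27787 and 36476 for NAT10-KD against 37988 and 38150 for WT, did not overlap either. The 16 host genes alone had 59 and 62 peaks in the NAT10-KD lists, against 59 and 53 in the WT lists (exact permutation p = 0.667), where NAT10-KD 1 and WT 1 tied. Small RNA genes had 21 and 24 peaks in the NAT10-KD lists, against 10 and 21 in the WT lists (exact permutation p = 0.667), where NAT10-KD 1 and WT 2 tied. GAS5 and MALAT1 set the direction of the total: without them, a choice made after their values were seen, members had 84 and 88 peaks in the NAT10-KD lists, against 66 and 71 in the WT lists.

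Peaks that shared 1 bp or more of the same strand, in whichever lists, were joined into regions. Lost, here, means that a region or gene had a peak in both WT lists but in no NAT10-KD list, gained means that both NAT10-KD lists had one and no WT list did, and kept means a peak in each of the 4 lists. Of 39 member regions found in both WT lists, 30 were lost (76.9%, 60.7 to 88.9), against 52.2% of all such regions. GAS5 and MALAT1 supplied 18 of these regions, all 18 of them lost, and among the other 21 regions 12 were lost (57.1%), near the background. Of 35 member regions found in both NAT10-KD lists, 18 were gained (51.4%, 34 to 68.6), against 48.1% of all such regions, which is also near the background. Only 6 of 234 member regions were kept (2.56%, 0.947 to 5.5), against 3.4% of all regions. These counts depend on having both libraries of a genotype: with WT 1 or WT 2 left out, 71 or 72 regions would be called lost, and with NAT10-KD 1 or NAT10-KD 2 left out, 58 or 56 would be called gained. Kept regions numbered 3 without NAT10-KD 2, 13 without WT 1 and 10 without WT 2.

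At the level of whole genes, 7 of 17 members with a peak in both WT lists were lost (41.2%, 18.4 to 67.1), against 12.8% of all genes. They were GAS5, RN7SL471P, RNU11, RNU5D-1, RNU6ATAC, 1 of the SNORA26 identifiers and SNORA74A. Of 19 members with a peak in both NAT10-KD lists, 7 were gained (36.8%, 16.3 to 61.6), against 17.1% of all genes: RNVU1-21, RNVU1-22, RNVU1-27, RNVU1-30, SCARNA17, SNHG30 and SNORD62A. The 8 kept genes (12.3%, against 32.3% of all genes) were NEAT1 and 7 hosts, SNHG15, SNHG16, SNHG17, SNHG29, SNHG5, SNHG6 and SNHG8, and no small RNA gene was among them. A peak in 1 list alone was the case for 34 of the 65 members (52.3%), against 22.1% of all genes. Small RNA genes made up 6 of the 7 lost and 6 of the 7 gained genes, and they hold few regions each. A gene with many peaks is called only when every peak is missing from the other genotype's lists. Genes were not matched for number of peaks, so these shares are not like for like. Over all regions the shares were 52.2% lost and 48.1% gained. Without WT 1 the lost genes numbered 17, and the gained genes numbered 19 without NAT10-KD 1 and 17 without NAT10-KD 2.

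The peak numbers in each list follow the order of Ensembl identifiers and skip values, so numbers missing at a gene's place show peaks that were numbered but not listed, belonging to the gene or to a neighbour in that order. All 7 lost genes had such missing numbers at their place in both NAT10-KD lists, and 6 of 7 gained genes had them in both WT lists. The exception was RNVU1-30, with 15 missing numbers in WT 1 and 0 in WT 2. This sets neither class apart: of members that were neither lost nor gained and that a list lacked, 28 of 28 and 23 of 23 had missing numbers at their place in the NAT10-KD lists, and 37 of 37 and 24 of 26 in the WT lists. GAS5 had the place with 25 missing numbers in NAT10-KD 1 and 34 in NAT10-KD 2, more than the 13 and 11 peaks it had in the WT lists. Whether these were GAS5 peaks that the authors left out was not tested.

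**Figure D1:**
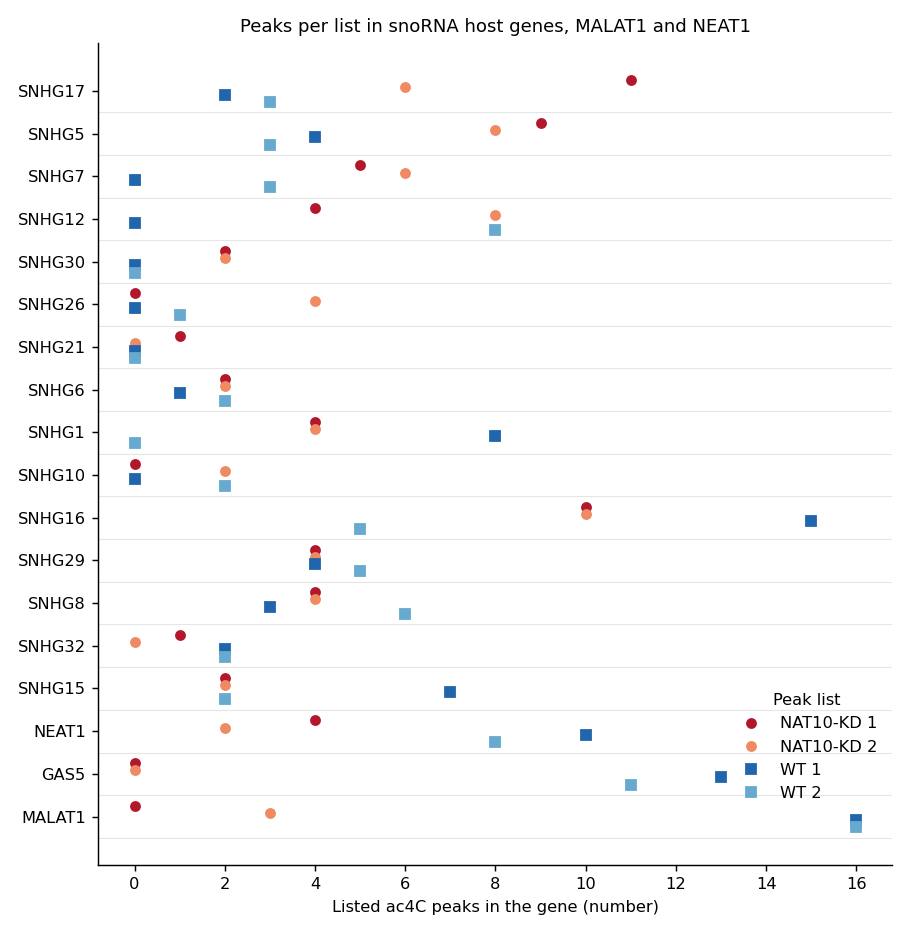
Number of listed ac4C peaks (x axis) in each snoRNA host gene, MALAT1 and NEAT1 (y axis), with circles for the NAT10-KD lists and squares for the WT lists, ordered by the difference of the group means. GAS5 and MALAT1 stand at the bottom with 0 to 3 peaks in the NAT10-KD lists and 11 to 16 in the WT lists, while SNHG17 and SNHG5 stand at the top.

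GAS5, the host of a row of box C/D snoRNAs whose spliced RNA accumulates when growth stops, had 0 peaks in both NAT10-KD lists, against 13 and 11 peaks in the WT lists. All of its WT peaks lay inside the RefSeq gene on the minus strand of chr1, from 173863901 to 173869045. They formed 16 regions, of which 8 were shared by both WT lists and so were lost. The strongest shared region was chr1:173864238-173864312, with authors' scores of 79.6 in WT 1 and 80.8 in WT 2, at percentiles 99.53 and 99.31 of their lists. The score is the authors', its meaning is not stated, and it is used here only as a percentile, the place of a peak among all peaks of its own list. A neighbouring region, chr1:173864663-173864712, scored 48.0 in WT 1 and 81.5 in WT 2. The same 2 regions spanned 75 and 50 nt and lay 4734 to 4808 and 4334 to 4383 nt from the RefSeq 5′ end, towards the 3′ end of the gene. A region of 75 nt at 1984 to 2058 nt scored 37.3 in WT 1 and 30.6 in WT 2, and none of the 3 covered an annotated snoRNA.

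MALAT1, an abundant long RNA of nuclear speckles, had 0 and 3 peaks in the NAT10-KD lists, against 16 and 16 in the WT lists. They formed 20 regions, of which 10 were lost and 0 gained or kept. The 3 peaks of NAT10-KD 2 spanned 25 to 50 nt and lay at percentiles from 12.02 to 63.55. Among the lost regions, chr11:65499038-65499287 began at the downstream RefSeq start and scored 31.1 in WT 1 and 33.0 in WT 2, at percentiles 96.19 and 91.82. Near the 3′ end, chr11:65505588-65505812 scored 60.2 in WT 1 and 16.6 in WT 2, at percentiles 99.14 and 65.18. The WT lists held the same 225 nt there but ranked it differently.

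NEAT1, the scaffold RNA of paraspeckles, had 4 and 2 peaks in the NAT10-KD lists, against 10 and 8 in the WT lists. The groups did not overlap, and NEAT1 as a gene counts as kept. Its peaks did not sit in the same places: they formed 22 regions, none of them lost, gained or kept, and 20 were found in 1 list alone. The best NEAT1 peak of each list stood at percentiles 63.3 and 46.7 for NAT10-KD, against 76.5 and 88.0 for WT.

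**Figure D2:**
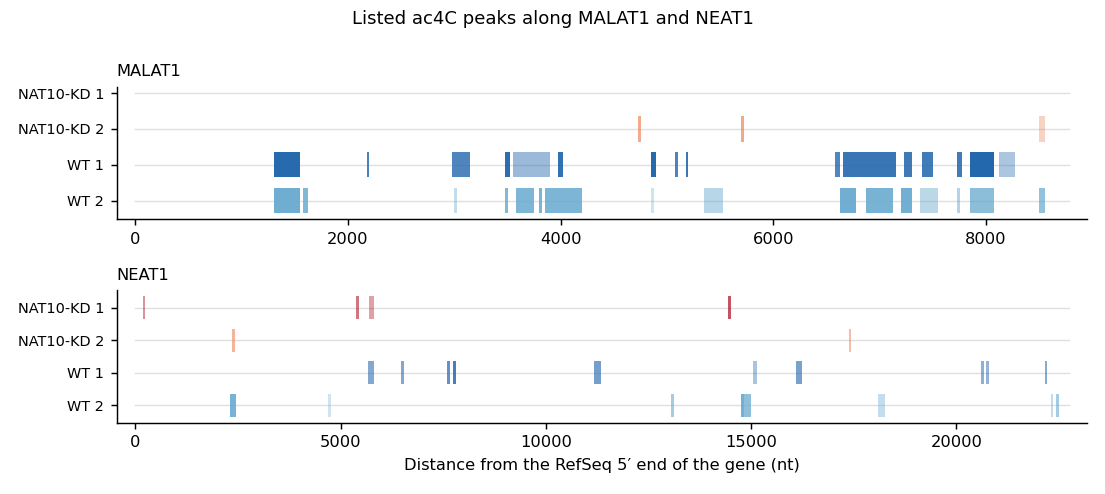
Listed ac4C peaks along MALAT1 (top) and NEAT1 (bottom), by distance from the gene's RefSeq 5′ end in nt, 1 line per list with the NAT10-KD lists above the WT lists, darker bars standing for a higher score percentile. MALAT1 has 16 bars in each WT list in largely the same places and 0 and 3 in the NAT10-KD lists, while NEAT1's bars seldom line up between lists.

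SNHG5, host of the box C/D snoRNAs SNORD50A and SNORD50B, had 9 and 8 peaks in the NAT10-KD lists, against 4 and 3 in the WT lists. It held 4 of the 18 gained regions, more than any other member. The strongest, chr6:85677950-85678049, scored 147.9 in both NAT10-KD lists, at percentiles 99.55 and 99.42. A second, chr6:85677825-85677899, scored 64.2 and 64.9 in the NAT10-KD lists. They lay 685 to 784 and 835 to 909 nt from the 5′ end, between the start and the first of the 2 snoRNA genes, where no WT list had a peak. The WT lists shared a place with NAT10-KD 2 near the 3′ end, where a peak at 1535 nt scored 15.8 in NAT10-KD 2, against 30.6 in WT 1 and 22.8 in WT 2.

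SNHG16, host of SNORD1A, SNORD1B and SNORD1C, had 10 and 10 peaks in the NAT10-KD lists, against 15 and 5 in the WT lists. The numbers of peaks overlapped, and 2 of its regions were kept. In the kept region chr17:76558777-76559051 the best peak scored 27.4 and 153.9 in the NAT10-KD lists, against 36.4 and 77.1 in the WT lists. In the other, chr17:76561086-76563731, a peak of 125 nt at chr17:76561288-76561412 had the same ends in all 4 lists. Member peaks mostly spanned multiples of 25 nt, so equal ends between lists say little about agreement. The scores of this peak were 73.3 and 112.9 for NAT10-KD, against 49.9 and 18.5 for WT. Scores of different lists are not on a known common scale, and the percentiles were 98.14 and 99.05 for NAT10-KD, against 98.70 and 71.85 for WT, which overlapped. The gained region of SNHG16 was the one at its start, with scores of 18.4 and 27.4.

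SNHG1, host of SNORD22 and SNORD25 to SNORD31, had 4 and 4 peaks in the NAT10-KD lists, against 8 and 0 in the WT lists. The WT libraries disagreed more than the genotypes did. Its gained regions were the start and chr11:62853328-62853402, which covered SNORD31 and scored 32.4 and 13.8 in the NAT10-KD lists. SNORD29 was covered in 3 lists, with scores of 16.5 and 56.2 for NAT10-KD, against 10.8 in WT 1 and no peak in WT 2.

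SNHG12, host of SNORD99 and 3 box H/ACA snoRNAs, had 4 and 8 peaks in the NAT10-KD lists, against 0 and 8 in the WT lists. A peak of 74 nt, chr1:28578749-28578822, lay on SNORD99 with the same ends in 3 lists, and scored 200.3 and 149.8 for NAT10-KD, against 18.4 in WT 2 and no peak in WT 1. Those percentiles were 99.78 and 99.42 for NAT10-KD, against 71.46 in WT 2. The gained region chr1:28579760-28579909 lay on SNORA61 and scored 39.5 and 30.8.

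SNHG6 carried some of the highest scores in the set. Its peak of 100 nt 3132 to 3231 nt from the 5′ end, chr8:66922311-66922410, scored 165.4 and 279.3 in the NAT10-KD lists, against a peak of 25 nt inside it that scored 13.2 in WT 2 and none in WT 1. Those percentiles were 99.63 and 99.89 for NAT10-KD, against 44.95 in WT 2. Just upstream, at 2982 to 3081 nt, a 100-nt peak on SNORD87 scored 69.6 in WT 1 and 121.8 in WT 2. In the NAT10-KD lists that place was inside 1 peak of 3011 nt in NAT10-KD 2 with a score of 72.3, and not under a listed peak in NAT10-KD 1. The joined region, chr8:66922461-66925521, was kept.

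SNHG17, host of SNORA71 copies, had 11 and 6 peaks in the NAT10-KD lists, against 2 and 3 in the WT lists, with no overlap. Most were weak: the best stood at percentiles 90.6 and 62.3 for NAT10-KD, against 43.3 and 32.6 for WT. The gained region, chr20:38425183-38425332, had the same ends in both NAT10-KD lists and lay on SNORA71B. The SNORA71 genes are near-identical copies, and which of them gave the reads is uncertain. SNHG7, host of SNORA17A and SNORA17B, had 5 and 6 peaks in the NAT10-KD lists, against 0 and 3 in the WT lists, and 2 gained regions with scores from 12.2 to 18.1.

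SNHG29, host of SNORD49A, SNORD49B and SNORD65, had 4 and 4 peaks in the NAT10-KD lists, against 4 and 5 in the WT lists. Equal numbers stood in different places: 1 region was gained, at the start, and 2 were lost, chr17:16439492-16439591 and chr17:16441624-16441873. The highest score of the gene, 148.9, came from a peak at chr17:16441074-16441148 that WT 2 alone listed. SNHG8, host of SNORA24, had 4 and 4 peaks in the NAT10-KD lists, against 3 and 6 in the WT lists, and its kept region was the start, at percentiles from 11.55 to 61.13. SNHG30, host of SNORD7, had 2 and 2 peaks in the NAT10-KD lists and none in the WT lists, but the peaks of NAT10-KD 1 and NAT10-KD 2 did not overlap.

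SNHG15, host of SNORA9, had 2 and 2 peaks in the NAT10-KD lists, against 7 and 2 in the WT lists, and 2 lost regions with scores from 11.04 to 15.55. SNHG32, host of SNORD48 and SNORD52, had 1 and 0 peaks in the NAT10-KD lists, against 2 and 2 in the WT lists, and 2 lost regions, the higher scoring 16.6 in WT 1 and 45.3 in WT 2. SNHG26 had 0 and 4 peaks in the NAT10-KD lists, against 0 and 1 in the WT lists, the WT 2 peak at percentile 95.35. The other 2 hosts, each with a peak in 1 or 2 lists, add 5 peaks in all.

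**Figure D3:**
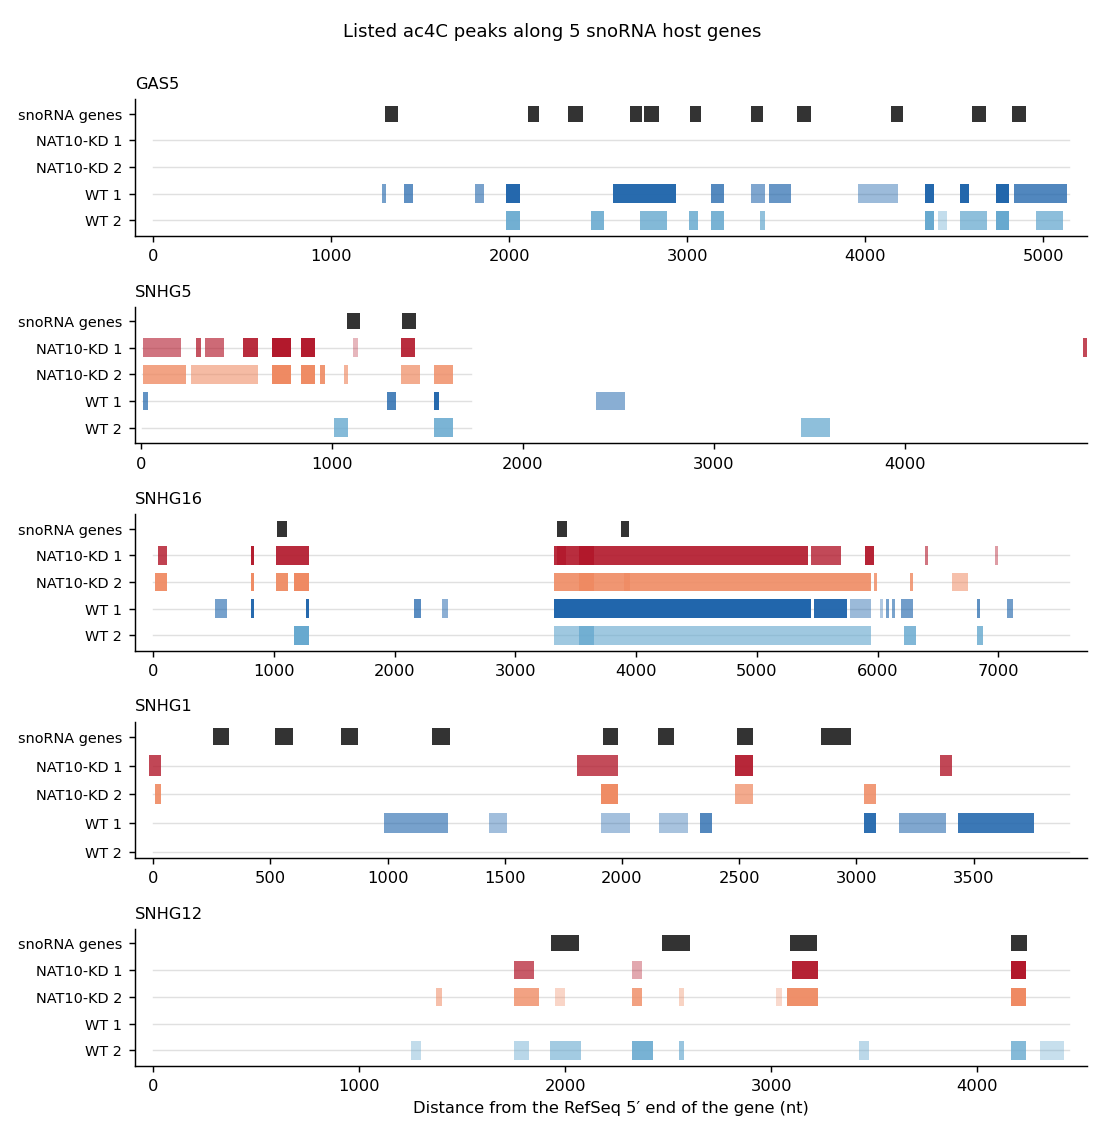
Listed ac4C peaks along GAS5, SNHG5, SNHG16, SNHG1 and SNHG12, by distance from the gene's RefSeq 5′ end in nt, with annotated snoRNA genes as dark boxes on the top line and the NAT10-KD lists above the WT lists. Darker bars stand for a higher score percentile and overlapping peaks of a list add up in shade. GAS5 has bars in the WT lists alone, and in SNHG5 the dark NAT10-KD bars at 685 to 909 nt have no counterpart in the WT lists.

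The deposited lists name the host for most peaks in an intron, so the place of each annotated snoRNA or scaRNA inside a host was set against the peaks. RefSeq places 46 such RNAs in the 16 hosts. Counting peaks of up to 1000 nt, 26.3% and 23.7% of host peaks in the NAT10-KD lists lay on one, against 19.0% and 26.0% in the WT lists (exact permutation p = 0.667), and the groups overlapped. By peaks of this span, 10 of the 46 had one in both NAT10-KD lists and 5 of those (50%) were gained, SNORD31, SNORA61, SNORD1C, SNORA71B and SNORD50A, beside 48.1% of all regions. In both WT lists 5 had one and all 5 were lost, beside 52.2% of all regions. They were SNORD78, SNORA103 and SNORD77 in GAS5, SNORA9 in SNHG15, and SNORD87 in SNHG6. Both shares of all regions count joined regions of any span rather than annotated RNAs, so they are unlike measures. None of the 46 was kept, 22 had a host peak in another combination of lists and 14 had none. Only peaks listed under the host were counted here. SNORD93 in SNHG26 is among those without one, although NAT10-KD 1 listed a 74-nt peak on it under its own name. With peaks of any span, chosen after the values were seen, the same 5 were gained of 12, and 4 were lost of 7, since the 3011-nt peak of NAT10-KD 2 covers SNORD87. SNORD1A and SNORD1B were then kept, under long SNHG16 peaks of all 4 lists. SNORA103 and SNORD77 shared 1 peak in each WT list. Peaks on an embedded RNA had median percentiles of 84.9 and 59.5 in the NAT10-KD lists, against 45.5 and 62.8 in the WT lists. Other host peaks had medians of 59.2 and 54.8 in the NAT10-KD lists, against 57.8 and 64.0 in the WT lists.

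Among small RNA genes listed in their own right, variants and pseudogenes of U1, the small nuclear RNA that recognises 5′ splice sites, were the most frequent. Of 15 such genes with a peak in any list, 6 and 11 had one in the NAT10-KD lists, against 1 and 1 in the WT lists, with no overlap. Over all genes, 6930 and 7872 had a peak in the NAT10-KD lists, against 6926 and 7365 in the WT lists. No U1 gene had a peak in both WT lists, so none could be called lost. All 4 U1 genes with a peak in both NAT10-KD lists were gained, beside 17.1% of all such genes. RefSeq names RNVU1-21 and RNVU1-22 of these as pseudogenes. RNVU1-22 scored 175.7 and 252.3 in the NAT10-KD lists, at percentiles 99.67 and 99.84, with a 150-nt peak from its first base (chr1:148263476-148263625). RNVU1-27 scored 68.6 and 137.9, with a 165-nt peak over its whole length. RNVU1-21 scored 69.2 and 48.1, with a 673-nt peak that is also listed under LINC01138, and RNVU1-30 scored 29.7 and 61.6.

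Other U1 variants and pseudogenes were found in 1 list each. RNVU1-14, RNVU1-15, RNVU1-19 and RNVU1-2A were listed in NAT10-KD 2 alone, with scores of 125.0, 106.4, 39.2 and 50.2. RNVU1-8 and RNU1-155P were listed in NAT10-KD 1 alone, with scores of 47.2 and 67.4. RNVU1-28, with a score of 82.8 and percentile 99.58, was listed in WT 1 alone. U1 genes and pseudogenes are close copies of each other, so which copy a read came from is uncertain, and a peak can be placed on different copies in different lists. A gained region of RNVU1-32, named to complete the count, was shared with PVT1 where NAT10-KD 1 listed the peak under PVT1.

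The minor spliceosome removes a small class of introns. RNU11, which recognises their 5′ splice site, was lost: the same 125-nt peak from its first base (chr1:28648600-28648724) had no counterpart in the NAT10-KD lists and scored 42.8 in WT 1 and 55.1 in WT 2, at percentiles 98.21 and 98.02. RNU6ATAC, part of the catalytic core, was lost too, with scores of 20.9 in WT 1 and 32.3 in WT 2 at chr9:134164464-134164563. RNU12 was listed in WT 2 alone, with a score of 20.3. RNU4ATAC, which pairs with U6atac, went the other way and was listed in NAT10-KD 1 alone, with a score of 59.5. Taking the 4 genes together, 1 and 0 had a peak in the NAT10-KD lists, against 2 and 3 in the WT lists. Over all genes, 6930 and 7872 had a peak in the NAT10-KD lists, against 6926 and 7365 in the WT lists. Of all genes with a peak in both WT lists, 12.8% were lost.

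U5, which holds the exons in place during splicing, had 0 and 1 genes with a peak in the NAT10-KD lists, against 2 and 4 in the WT lists. Beside these stand 6930 and 7872 of all genes in the NAT10-KD lists, against 6926 and 7365 in the WT lists. The share lost was 12.8% of all genes with a peak in both WT lists. RNU5D-1 was lost, with scores of 26.4 in WT 1 and 25.4 in WT 2 at chr1:44731055-44731170. The pseudogene RNU5A-8P scored 96.3 in NAT10-KD 2 and 22.4 in WT 2 with the same ends, at percentiles 98.77 and 80.58. The pseudogene RNU5E-4P scored 43.6 in WT 2 alone. U6 pseudogenes were listed for 2 and 0 genes in NAT10-KD, against 0 and 3 in WT, none of them in more than 1 list. Copies of U5 and U6 are alike too, so the origin of these reads is uncertain.

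**Figure D4:**
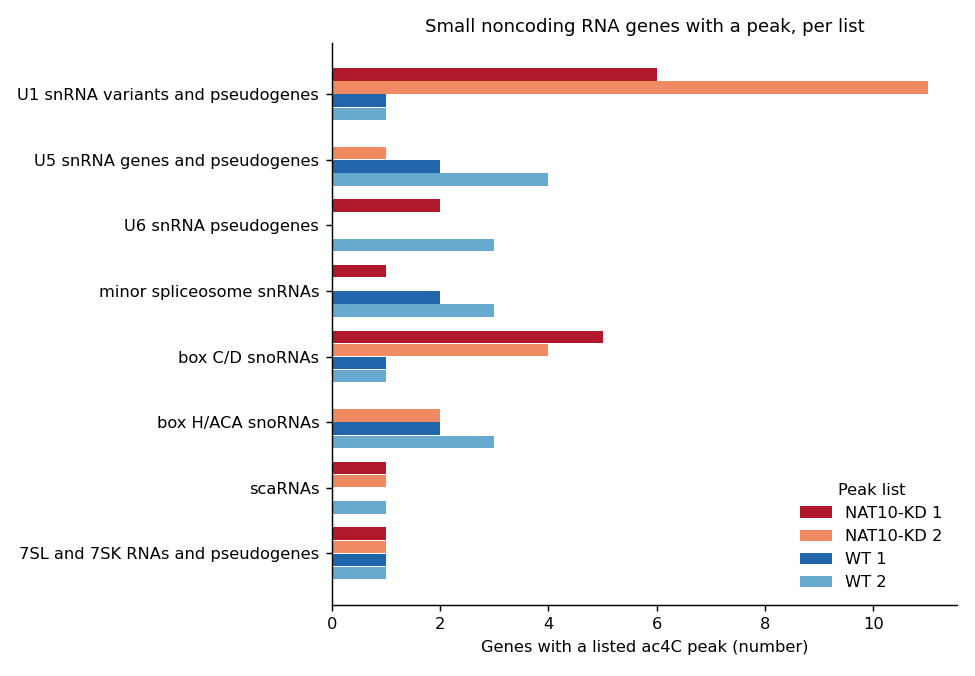
Number of small noncoding RNA genes with a listed ac4C peak (x axis) by class (y axis), 1 bar per list with the NAT10-KD lists above the WT lists. U1 variants and pseudogenes reach 6 and 11 genes in the NAT10-KD lists and 1 and 1 in the WT lists. U5 genes and minor spliceosome RNAs have more in the WT lists.

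Box C/D snoRNA genes listed in their own right had 9 and 7 peaks in the NAT10-KD lists, from 5 and 4 genes, against 1 and 1 peaks in the WT lists, from 1 gene each. Over all genes, 6930 and 7872 had a peak in the NAT10-KD lists, against 6926 and 7365 in the WT lists. Of the 7 peaks of NAT10-KD 2, 4 lay outside the annotated snoRNA they are listed under, and in both NAT10-KD lists some genes held a short peak inside a longer one, so peaks outnumber places. SNORD62A was gained, and its 86-nt peak matched the annotated gene exactly and scored 11.5 and 66.2 in the NAT10-KD lists. Its copy SNORD62B had a peak with the ends of the gene that scored 11.6 and 10.9 in the NAT10-KD lists, against 35.6 in WT 1 and none in WT 2. Those percentiles were 28.44 and 16.73 for NAT10-KD, against 97.28 in WT 1. Both lie in PRRC2B, and longer peaks merged them into 1 kept region with that gene. Which of these copies gave the reads is uncertain, and so is the gain of SNORD62A by itself. SNORD104 was listed in NAT10-KD 1 alone, with a best score of 45.7. SNORD13, the snoRNA that works with NAT10 on 18S ribosomal RNA, had 0 peaks in all 4 lists.

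Box H/ACA snoRNA genes had 0 and 2 peaks in the NAT10-KD lists, against 3 and 5 in the WT lists, with no overlap. They came from 0 and 2 genes in the NAT10-KD lists, against 2 and 3 in the WT lists, where NAT10-KD 2 and WT 1 tied. All listed peaks, 27787 and 36476 for NAT10-KD against 37988 and 38150 for WT, did not overlap either. In each WT list SNORA74A held a 198-nt peak inside one of 410 nt, so here too peaks outnumber places. SNORA74A was lost: a 198-nt peak with the ends of the gene to within 2 nt (chr5:139278781-139278978) scored 44.0 in WT 1 and 28.7 in WT 2. SNORA26 lies in DANCR, and the identifier called lost scored 22.4 in WT 1 and 52.2 in WT 2. The second identifier of SNORA26 held a peak of 38405 nt in NAT10-KD 2 that covers the same bases, so the region was kept and the loss rests on how the peak was named. Of the scaRNAs, SCARNA17 was gained with scores of 32.6 and 35.4, from a peak of 275 nt in NAT10-KD 1 and one of 25246 nt in NAT10-KD 2.

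7SL is the RNA of the signal recognition particle and 7SK holds back the elongation factor P-TEFb. RN7SL471P, a 7SL pseudogene, was lost, with a 225-nt peak that scored 21.7 in WT 1 and 28.1 in WT 2. RN7SL3 had 1 peak, with an infinite score, in NAT10-KD 2 alone. Copies of 7SL are alike too, so which copy gave the reads is uncertain. RN7SL1, RN7SL2 and RN7SK, and the RNase MRP and RNase P RNAs RMRP and RPPH1, had 0 peaks in all 4 lists.

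Peaks on small RNA genes ranked higher than those on hosts in every list. Their median percentile was 82.7 and 94.8 in the NAT10-KD lists, against 92.0 and 84.4 in the WT lists, while hosts with MALAT1 and NEAT1 had 68.3 and 58.2 in the NAT10-KD lists, against 60.4 and 63.7 in the WT lists. Neither kind separated the genotypes (exact permutation p = 1 for each). The classes of small RNA were not alike. Box C/D snoRNA peaks had medians of 49.6 and 44.4 in the NAT10-KD lists, below those of hosts. Their single peaks in the WT lists stood at 97.3 and 84.4. U1 peaks had medians of 97.8 and 96.6 in the NAT10-KD lists, against 99.6 and 28.4 in the WT lists. Many small RNA peaks ended where the annotation ends: within 2 nt of the gene's 5′ end for 9 of 21 and 8 of 24 in the NAT10-KD lists, against 6 of 10 and 11 of 21 in the WT lists. Whether the annotation itself set these ends when peaks were called was not tested. Median width over all members was 75 and 100 nt in the NAT10-KD lists, against 86 and 100 nt in the WT lists, below the 125 and 125 nt of all peaks for NAT10-KD, against 125 and 150 nt for WT. Hosts with MALAT1 and NEAT1 had a median of 75 nt in every list. Small RNA peaks alone were wider, with medians of 141 and 157 nt for NAT10-KD, against 125 and 116 nt for WT.

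**Figure D5:**
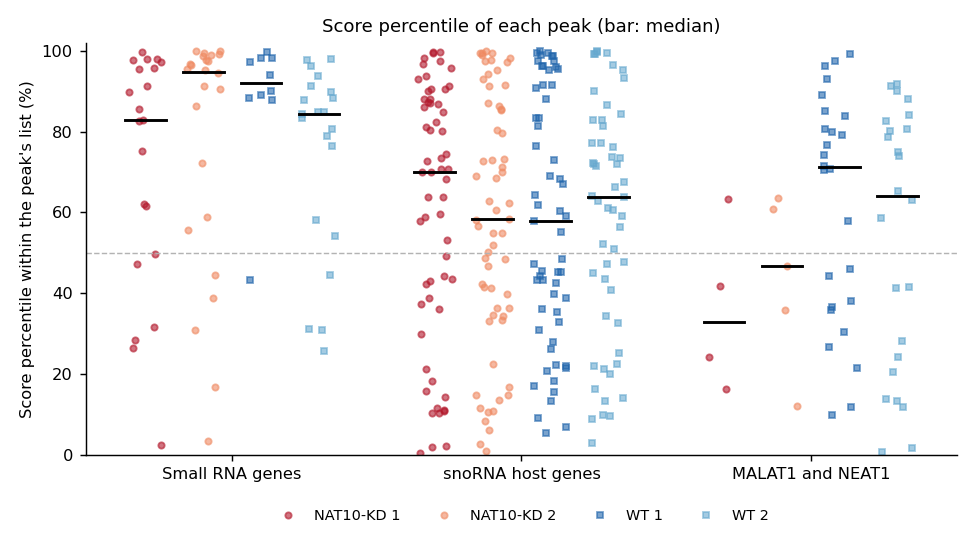
Score percentile of each member peak within its own list (y axis, %) for small RNA genes, snoRNA host genes, and MALAT1 with NEAT1, with circles for the NAT10-KD lists on the left and squares for the WT lists on the right of each set, black bars for medians and a dashed line at 50. Points are spread sideways at random, and the bars of small RNA genes stand between 82.7 and 94.8 in all 4 lists.

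Genes for proteins that bind or build these RNAs were set beside them. Of 109 such genes 103 had a peak, 62 in both WT lists and 62 in both NAT10-KD lists. Of the 62 in both WT lists, 4 were lost (background 12.8%). Of the 62 in both NAT10-KD lists, 10 were gained (background 17.1%). Neither share exceeded its background. Of the 103 genes, 40 were kept (background 32.3%). Of 21 snoRNP genes, NHP2, a core protein of box H/ACA particles, was lost with 0 and 0 peaks in NAT10-KD, against 4 and 3 in WT. Its partners in that particle differed. GAR1 and NOP10 were gained, with 5 and 5 and with 1 and 2 peaks in the NAT10-KD lists and 0 in both WT lists. DKC1 was kept, with 7 and 12 peaks in the NAT10-KD lists, against 13 and 10 in the WT lists. RUVBL2 and WRAP53, which assemble or localise such particles, were gained too.

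Of 40 genes for snRNP proteins and their assembly, 25 had a peak in both WT lists and 0 of them were lost. Of the 26 with one in both NAT10-KD lists, SNRPD3 and GEMIN6 were gained, and 19 of the 40 were kept. The shares of all genes, 12.8% lost, 17.1% gained and 32.3% kept, stand beside each of these small lists, and none was tested against them. Of 19 genes for snRNA transcription and 3′ processing, 10 had a peak in both WT lists, of which INTS2 and INTS7 were lost. Of the 8 with one in both NAT10-KD lists, INTS11 and SNAPC4 were gained. Of 11 partners of 7SL and 7SK, 8 were kept and HEXIM1, which holds P-TEFb on 7SK, was gained with 6 and 3 peaks in NAT10-KD and 0 in WT. Of 7 paraspeckle proteins, which bind NEAT1, HNRNPK was gained with 4 and 5 peaks in NAT10-KD and 0 in WT, and 4 were kept. None of the 11 RNase P and MRP protein genes was lost, gained or kept, and 8 had a peak in some list.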

How the data were processed

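The deposited files analysed here are 4 peak lists, 1 for each ac4C immunoprecipitation library, made by the authors, with position, strand, gene identifier and a score per peak. What the deposited score measures is not stated by the authors. The lowest deposited score was 10, the highest finite one 308.209, and some were infinite. The tools listed in the submitters' processing notes are HISAT2 2.2.1, fastp 0.21.1, bedtools 2.30.0 and SAMtools 1.12, and the build is hg38. How peaks were called, against which control and with which gene annotation is not given in the sources used here. Starts count from 0 in the files and from 1 here. Most member peaks spanned multiples of 25 nt and mostly started in steps of 25 nt within a gene. Some small RNA peaks began at the gene's first base or spanned the whole annotated gene. Equal ends between lists, or with the annotation, are therefore not independent agreement on a place.

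Peaks were merged, called and counted over the whole table in Python 3.11.15 with pandas 2.3.3, numpy 2.4.6 and SciPy 1.17.1. The merging and calling steps were tested on simulated data. Gene places and start sequences came from RefSeq (GRCh38.p14), where all 64 symbols were found and 15 had a start sequence. The genes named are those with a peak in both libraries of a genotype, those with a peak at percentile 95 or higher, and a list of fixed names, some of which had no peak. The members, the lists of partner genes and the calls were chosen with earlier results of these data known. Same-numbered libraries were not treated as pairs, since their deviations correlated by 0.0194 over all genes (0.228 over the member genes), with 2 libraries a group and no shared source named in the labels. Alternatives changed the overlap, strand, score, span, members and libraries. 1 result among the partner genes is not reported here.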

Additional observations from a re-analysis of the deposited data

How the results depend on the processing

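Of 97 alternatives to the 9 results, 68 kept the sign of a difference or stayed within 1.5 times of the count. A further 20 moved a count by over 1.5 times, and 9 turned the sign of a difference that no test had called. No p-value entered this sorting. The difference in member peaks per list (NAT10-KD minus WT), -9, became 1.5 with lists cut to equal length, 7 for small RNA genes alone and 17.5 without GAS5 and MALAT1. The difference in their share of all peaks, 0.0224 percentage points, became -0.00759 for hosts and long noncoding RNAs alone, and ran from -0.004 to 0.0488 with 1 library left out. The difference in median percentile, -2.33, became 1.15 for hosts and long noncoding RNAs alone, 0.583 for small RNA genes alone and 9.58 without GAS5 and MALAT1, and ran from -6.16 to 1.5 with 1 library left out. Equal list length and leaving out GAS5 and MALAT1 were chosen after seeing the data.

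Lost regions numbered 5 for small RNA genes alone and 12 without GAS5 and MALAT1. Gained regions numbered 6 for small RNA genes alone. Kept regions numbered 10 on either strand, 3 with peaks up to 1000 nt and 2 for small RNA genes alone. Lost genes and gained genes numbered 1 each for hosts and long noncoding RNAs alone. Kept genes numbered 0 for small RNA genes alone and 4 among the stronger peaks of each list, those above its median score. With each library left out in turn, lost regions ran from 30 to 72, gained regions from 22 to 58, kept regions from 3 to 13, lost genes from 8 to 17, gained genes from 9 to 19 and kept genes from 9 to 10. The cause of these shifts was not tested, beyond the fewer genes or libraries that some alternatives hold. With the replicate number as a block, the differences are the same by construction (-9 peaks), and only the p-value could change. The exact sign-flip p for peaks per list was 0.5, the lowest that 2 pairs allow. These alternatives are counted among those that kept the sign, but they could not have turned it. Read depth is unknown, so a peak missing from a list was not listed, which does not show that the RNA was unacetylated.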
